A study of Homo sapiens with 10 samples.

Results

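The genes described here are 47 components of the cell-death machinery and targets of p53, taken by symbol from a table of 62709 genes with values. They comprise 13 p53 targets, 15 members of the BCL2 family (5 pro-survival, 2 effectors and 8 BH3-only), 7 caspases, 3 components of the death receptor complex, 3 apoptosome and mitochondrial factors, 4 genes of the inhibitors of apoptosis (XIAP, BIRC2, BIRC3 and their antagonist XAF1) and 2 genes of necroptosis. RNA was sequenced from H441, an established human lung adenocarcinoma line, in 10 libraries of 4 groups. WT (n = 3) and Lipo (n = 2) are both labelled wild type without treatment, and Lipo is a word in the titles that the labels do not explain. KO (n = 3) is labelled a CRISPR-Cas9 knockout of TET1 made from the wild-type line, and OE (n = 2) is labelled transient overexpression after transfection with a plasmid for full-length human TET1. Whether KO is 1 clone or a pool, which promoter the plasmid carried and what the Lipo cells received are not stated in the labels.

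Cells die by apoptosis along a pair of routes. In the mitochondrial route, BH3-only proteins neutralise the pro-survival BCL2 proteins, the effectors BAX and BAK1 open the outer mitochondrial membrane, and released cytochrome c assembles APAF1 and caspase-9 into the apoptosome. In the death receptor route, ligands of the tumour necrosis factor family bring FADD, caspase-8 and its regulator CFLAR to a receptor, and RIPK1 at the same complexes can instead drive NF-kB signalling or, through RIPK3 and MLKL, necroptosis. The inhibitors of apoptosis restrain caspases or modify RIPK1, and p53 transcribes many genes of growth arrest and of the mitochondrial route after stress. As background, TET1 oxidises methylated cytosine in DNA.

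Library totals lay between 20994462 and 25981097 reads, and the 47 genes together took 51889 to 66266 reads in the WT, KO and Lipo libraries and 80677 and 87038 in OE. TET1 was counted 17883 and 20805 times in OE, 0 and 1 times in Lipo, 2, 7 and 0 times in WT and 4, 0 and 8 times in KO, so that RNA level distinguished OE and gave no check of the KO label. No pair of replicates agreed within sampling noise. The KO libraries agreed least, with a chi-square per gene of 36.6, 36.9 and 60.1 between pairs. WT 1 differed from WT 2 and WT 3 by 39.6 and 42.8, while WT 2 and WT 3 differed by 6.06, the Lipo libraries by 5.83 and the OE libraries by 4.70. All 9 lung epithelial markers were detected in every library, with a summed level of 7960 to 12000 CPM (read counts scaled to a common library size). Of 13 markers of other cell types, 5 to 9 were at 0 in each library, and DCN, PDGFRB and HBB were among those at 0 in all 10. The summed level of the 13 was 159 to 275 CPM in WT, 58.1 to 70.8 in KO, 153 and 163 in Lipo and 306 and 319 in OE, nearly all of it COL1A1. The part of these markers in the results was not tested. The labels do not say that replicates were separate cultures, so p-values measure the spread between these libraries, and in bulk RNA fewer cells of a state and less RNA per cell cannot be told apart.

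Cell-death and p53-target genes changed mainly in OE, and mainly upward. No group is labelled as given a plasmid without TET1. In every comparison with OE, TET1 and the transfected plasmid therefore cannot be told apart. Of the 44 of 47 genes that passed the filter on low counts, 17 were higher and 2 lower in OE than in Lipo at an adjusted p under 0.05 (edgeR quasi-likelihood test, Benjamini-Hochberg adjustment over 15832 genes), against 6.79% and 5.53% of all genes tested. KO differed from WT in 4 genes that were higher and 2 that were lower, against 5.13% and 7.45% of all genes. Of those 4, XAF1 passed the filter only through the OE libraries. Lipo differed from WT in 3 higher and 1 lower, against 1.32% and 2.38%. The median log2 fold change of the 44 genes was 0.40 in OE, -0.06 in KO and -0.04 in Lipo, where all genes tested had medians of -0.01, 0.00 and -0.02. A further 22 genes passed in none of these comparisons. CASP1, HRK and RIPK3 had too few reads to test. OE with Lipo and Lipo with WT share the Lipo libraries, and Lipo with WT and KO with WT share the WT libraries.

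**Figure D1:**
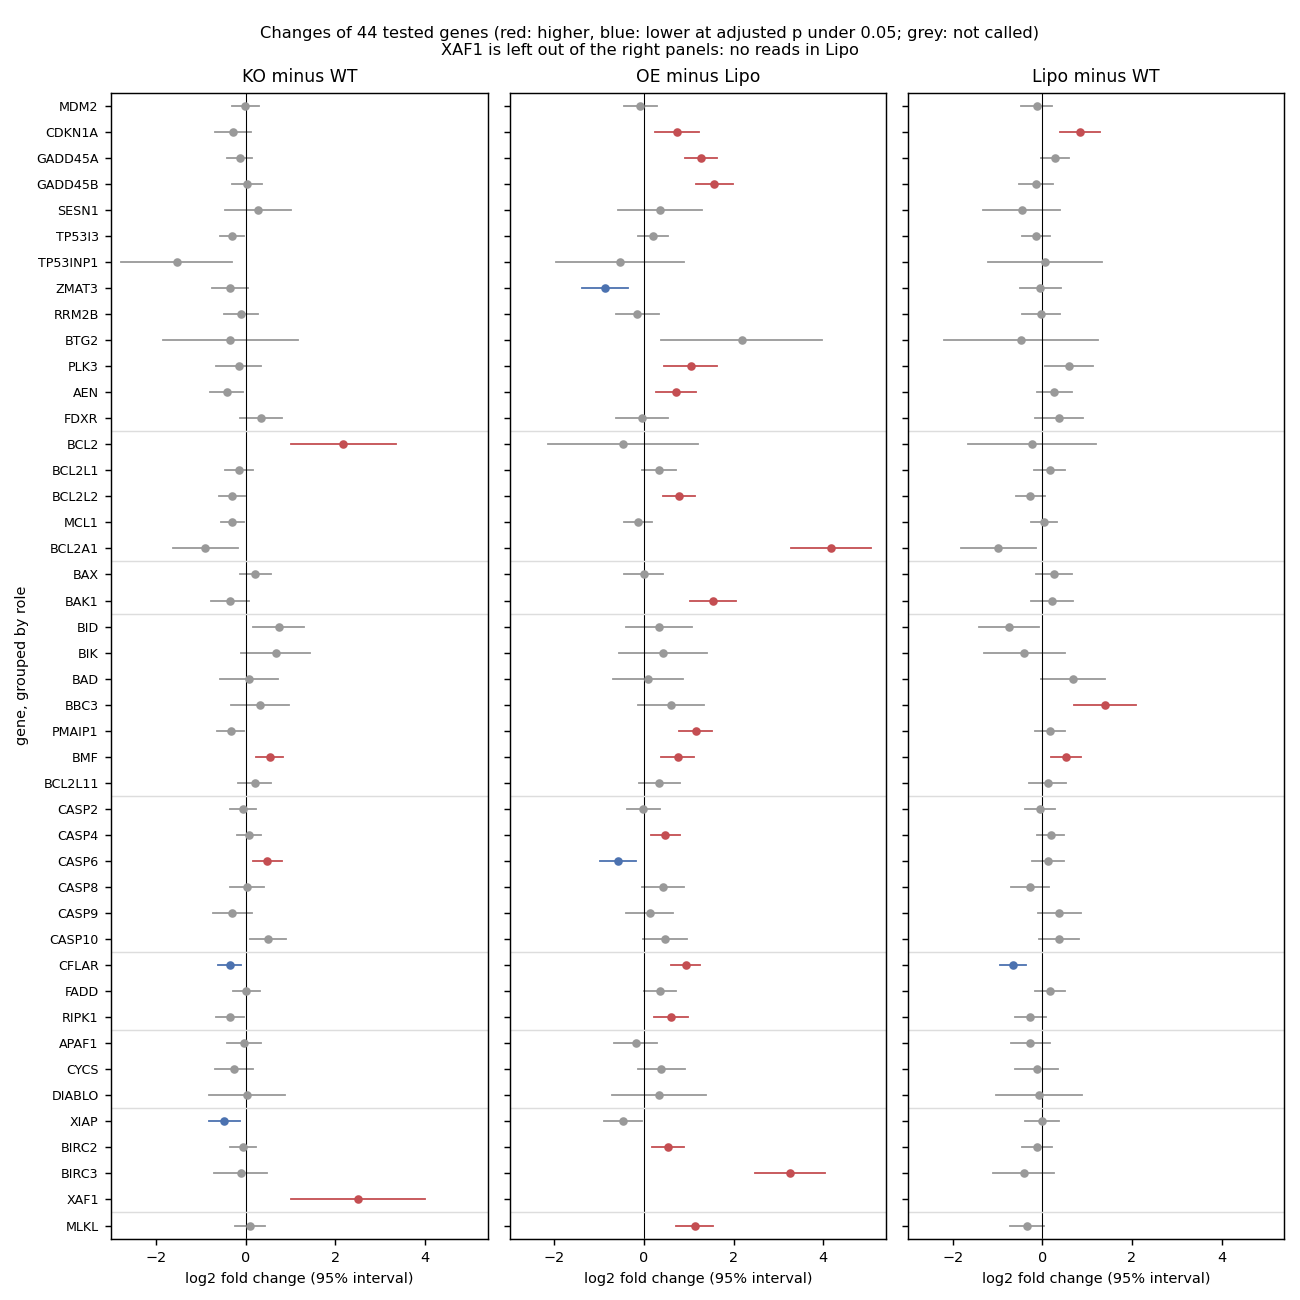
Log2 fold change (x axis) of each tested gene (y axis, grouped by role) in KO minus WT, OE minus Lipo and Lipo minus WT, with the 95% interval as a line; red and blue mark genes higher or lower at an adjusted p under 0.05. The middle panel holds most of the red points, and XAF1, which had no reads in Lipo, is drawn only in the first panel.

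RefSeq promoter windows of 300 bases (250 before to 50 after a transcript start, assembly GRCh38.p14) were held for 38 of the 47 genes. They are printed for the 4 genes with the largest fitted change in OE that had a window, of which BTG2 missed the threshold, and for GADD45B, the next, added after its values were seen because it rose. All run 5′ to 3′ on the gene's strand. Capitals mark matches on either strand to an interferon-stimulated response element core (GAAA, any 2 bases, GAAA), an interferon regulatory factor repeat (GAAA, any 1 base, GAAA) or the NF-kB consensus.
XAF1 (chr17:6755796-6756095, plus strand): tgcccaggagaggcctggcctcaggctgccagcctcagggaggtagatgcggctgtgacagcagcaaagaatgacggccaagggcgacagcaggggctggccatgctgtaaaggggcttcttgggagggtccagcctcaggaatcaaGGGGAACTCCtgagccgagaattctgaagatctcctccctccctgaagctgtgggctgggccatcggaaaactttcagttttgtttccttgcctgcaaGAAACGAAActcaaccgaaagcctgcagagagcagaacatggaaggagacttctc
BCL2A1 (chr15:79971147-79971446, minus strand): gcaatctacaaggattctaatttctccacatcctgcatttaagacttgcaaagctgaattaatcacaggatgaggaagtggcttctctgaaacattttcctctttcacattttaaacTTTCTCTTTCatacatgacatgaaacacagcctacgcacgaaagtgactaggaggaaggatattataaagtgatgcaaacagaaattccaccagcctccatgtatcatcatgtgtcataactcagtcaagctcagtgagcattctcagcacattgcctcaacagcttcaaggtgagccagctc
BIRC3 (chr11:102317234-102317533, plus strand): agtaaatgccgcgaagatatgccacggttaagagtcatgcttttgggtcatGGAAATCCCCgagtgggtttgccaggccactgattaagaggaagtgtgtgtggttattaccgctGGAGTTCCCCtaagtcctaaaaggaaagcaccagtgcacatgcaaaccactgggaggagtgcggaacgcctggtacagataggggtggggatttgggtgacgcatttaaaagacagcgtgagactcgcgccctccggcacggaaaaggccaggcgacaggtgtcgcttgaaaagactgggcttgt
BTG2 (chr1:203305269-203305568, plus strand): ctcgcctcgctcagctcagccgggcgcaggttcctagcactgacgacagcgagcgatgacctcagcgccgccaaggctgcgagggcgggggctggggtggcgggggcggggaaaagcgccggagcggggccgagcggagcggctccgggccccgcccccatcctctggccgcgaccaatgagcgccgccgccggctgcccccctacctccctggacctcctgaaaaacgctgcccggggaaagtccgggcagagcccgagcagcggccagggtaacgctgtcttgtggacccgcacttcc
GADD45B (chr19:2475877-2476176, plus strand): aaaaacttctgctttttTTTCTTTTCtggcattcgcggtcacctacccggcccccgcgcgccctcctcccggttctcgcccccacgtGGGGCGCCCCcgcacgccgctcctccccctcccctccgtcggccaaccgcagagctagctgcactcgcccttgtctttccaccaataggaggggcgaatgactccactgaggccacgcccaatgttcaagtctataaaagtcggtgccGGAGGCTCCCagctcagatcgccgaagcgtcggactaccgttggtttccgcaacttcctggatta

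The XAF1 window held an interferon regulatory factor repeat and an NF-kB match, the BCL2A1 window an interferon-stimulated core, the BIRC3 window a pair of NF-kB matches, and the GADD45B window a repeat and NF-kB matches. The BTG2 window and a second XAF1 window (chr17:6755197-6755496) held none of these. Matches are descriptions of letters, and no binding was measured. Over all 35116 windows, 3.57% held the interferon-stimulated core, 3.12% the repeat, 11.3% the NF-kB consensus and 6.63% a p53 half-site, searched on both strands, where the core and the repeat do not exclude each other. Over the 68 windows of these genes the shares were 7.35%, 5.88%, 11.8% and 8.82%. The core was found for BBC3, BCL2A1, CASP8 and RIPK1, of which BBC3 and CASP8 did not pass in OE with Lipo. The repeat was found for CASP4, GADD45B, TP53I3 and XAF1, of which TP53I3 did not pass there. The NF-kB consensus was found for BIRC3, BMF, CASP2, CFLAR, GADD45B, HRK, XAF1 and ZMAT3. Of these, CASP2 did not pass, HRK was not tested and ZMAT3 fell. The p53 half-site was found for AEN, BAK1, CASP8, CASP9, FDXR and SESN1, of which AEN and BAK1 rose in OE. The windows of these genes were richer in CpG than all windows together, with a median of 25.5 sites against 14, and 69.1% had a ratio of observed to expected CpG of at least 0.6 against 48.9%. Of 15 genes that rose in OE and had a window, 5 had only windows under 0.6 (XAF1, BCL2A1, BAK1, CASP4 and MLKL), compared with 3 of 20 that did not pass (TP53I3, BBC3 and CASP8). No methylation was measured in these libraries.

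Of the 13 genes listed as p53 targets, 5 rose (38.5%) and 1 fell (7.69%) in OE. These shares were close to those of all 44 tested genes of the part (38.6% and 4.55%), which include these 13. Of all genes tested, 6.79% were higher and 5.53% lower in OE. Stress and growth-arrest genes led the rises. GADD45B, a stress-induced regulator of kinase signalling, was at 69.4 and 66.6 CPM in Lipo and at 197 and 206 in OE, a 2.97-fold rise (log2 1.57, SE 0.17, adjusted p = 1.79e-05). In WT it was at 72.1, 71.8 and 81.6 CPM and in KO at 63.1, 74.4 and 92.5, so both OE libraries lay above the other 8. GADD45A, its relative in growth arrest and DNA repair, was at 116 and 114 CPM in Lipo and 263 and 293 in OE, 2.41-fold higher (log2 1.27, SE 0.14, adjusted p = 2.50e-05), against 90.5 to 101 in WT and 76.3 to 92.6 in KO. PLK3, a stress-responsive polo-like kinase, was at 13.7 and 11.4 CPM in Lipo and 23.8 and 28.1 in OE (2.06-fold, adjusted p = 0.011), and AEN, an apoptosis-enhancing nuclease, at 38.6 and 30.6 and at 60.2 and 52.9 (1.63-fold, adjusted p = 0.018). Both calls rested on single libraries. PLK3 had an adjusted p of 0.0554 to 0.144 without Lipo 2, Lipo 3 or OE 2, and AEN one of 0.0706 to 0.235 without Lipo 3, OE 1 or OE 2.

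CDKN1A, which encodes the cyclin-dependent kinase inhibitor p21, rose in steps across the wild-type-labelled and OE libraries. It was at 69.7, 56.2 and 60.4 CPM in WT, 38.3, 64.3 and 50.7 in KO, 99.7 and 123 in Lipo and 192 and 178 in OE. The groups overlapped only between WT and KO. Lipo was 1.79-fold above WT (log2 0.84, SE 0.18, adjusted p = 0.0185) and OE 1.66-fold above Lipo (log2 0.73, SE 0.20, adjusted p = 0.0278). Without Lipo 2, Lipo 3, OE 1 or OE 2 the second call was lost, with an adjusted p of 0.0805 to 0.247, and without WT 2, WT 3, Lipo 2 or Lipo 3 the first, with 0.0598 to 0.316. ZMAT3, an RNA-binding protein, went the other way: it was at 18.6 and 20.3 CPM in Lipo and fell to 10.7 and 10.5 in OE (log2 -0.87, SE 0.21, adjusted p = 0.0127). That call was lost without any 1 of the Lipo and OE libraries, with an adjusted p of 0.0559 to 0.11.

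The other 7 of these p53 targets passed in no comparison. MDM2, the ubiquitin ligase that p53 induces and that degrades p53, was at 42.3 ± 2.53 CPM in the 3 WT libraries, 41.9 ± 3.89 in the 3 KO libraries, 38.6 ± 0.875 in both Lipo libraries and 36.5 ± 1.79 in both OE libraries (mean ± SD). Its log2 change in OE was -0.08, with a 95% interval of -0.45 to 0.29. The mitochondrial reductase gene FDXR (log2 -0.05), the ribonucleotide reductase subunit RRM2B (-0.15), the oxidoreductase TP53I3 (0.19) and the sestrin SESN1 (0.36) had changes in OE near 0, with adjusted p-values from 0.412 to 0.918. BTG2, an antiproliferative gene, had 18 and 2 reads in Lipo and 36 and 46 in OE, and its log2 value of 2.18 missed the threshold (adjusted p = 0.0677). It passed with DESeq2 (0.0477), without a filter (0.0424), with only the groups compared (0.0144), against all 5 wild-type-labelled libraries (0.0333) and without Lipo 2 (log2 4.33, adjusted p = 0.0226). TP53INP1 had 42, 21 and 31 reads in WT and 10, 9 and 13 in KO, a log2 value of -1.54 that also missed it (adjusted p = 0.0591). It passed with the stricter filter (0.0483), against all 5 wild-type-labelled libraries (0.0373) and without OE 1 or OE 2 (0.0492 and 0.0441). In KO with WT, 0 of the 13 p53 targets passed the test with edgeR and 0 with DESeq2, and 4 had an unadjusted p under 0.05 in edgeR. Of all genes tested with edgeR, 5.13% were higher and 7.45% lower there, and 4204 of 15832 had an unadjusted p under 0.05. These counts do not set the 13 genes apart from others. Against all 5 wild-type-labelled libraries AEN was also lower in KO (log2 -0.54, adjusted p = 0.0269).

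**Figure D2:**
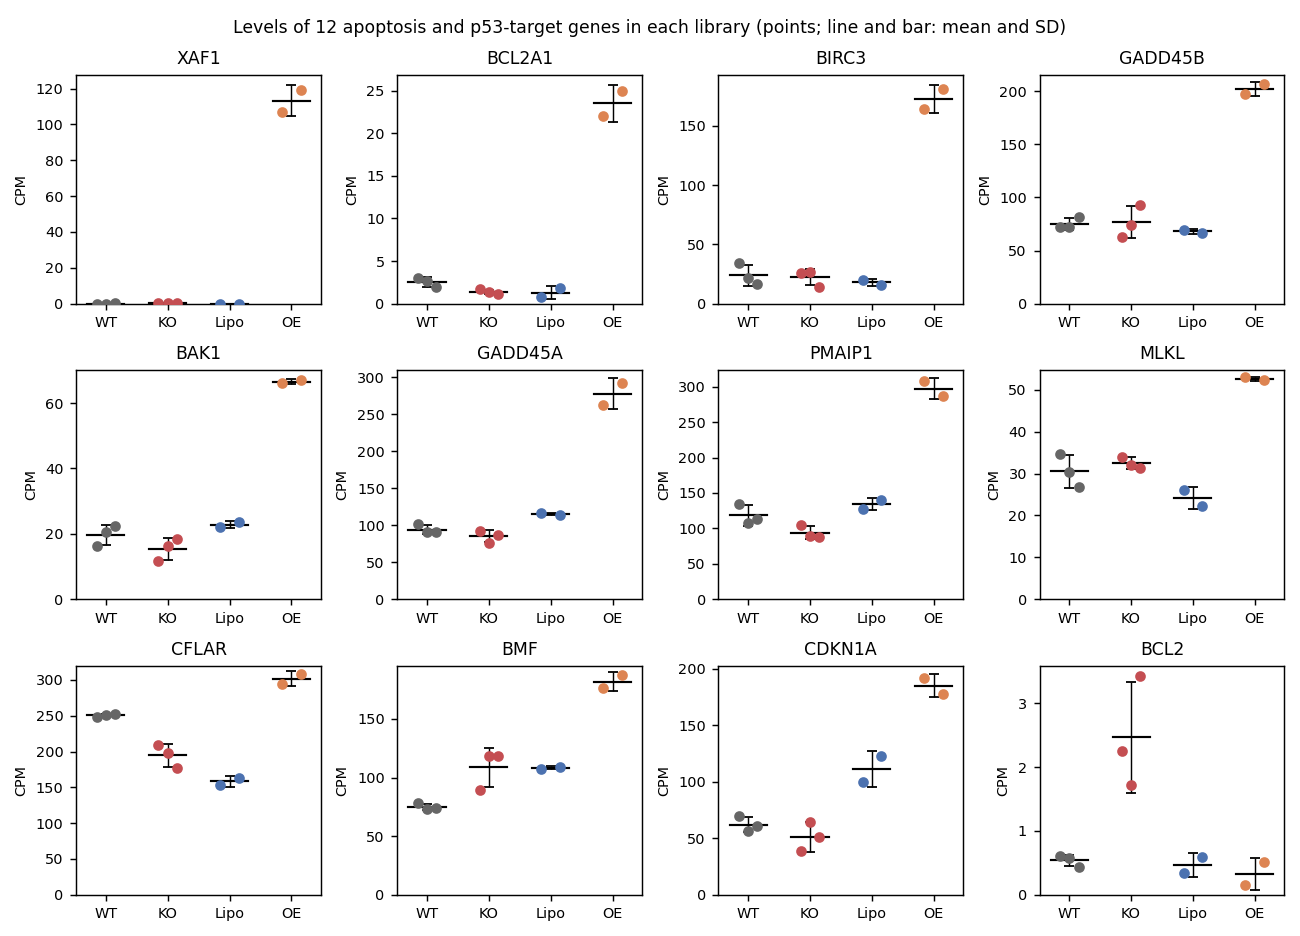
Level in CPM (y axes, each from 0) of 12 genes in each library (points), by group, with the group mean (line) and SD (bar). The OE libraries lie above all other libraries for every gene shown but BCL2, for which the KO libraries do.

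Among the pro-survival BCL2 genes, BCL2A1 rose the most in OE, and BCL2 rose in KO. Counted per kilobase of exon in WT, MCL1 was the most abundant of the 47 genes at 112 ± 9.38 CPM per kb (SD, n = 3), followed by BCL2L1 at 83.6 ± 7.18, while BCL2L2 stood at 9.78 ± 0.556, BCL2A1 at 2.36 ± 0.538 and BCL2 at 0.0458 ± 0.00756. BCL2A1, an NF-kB-inducible pro-survival gene, had 71, 71 and 44 reads in WT, 38, 34 and 26 in KO, 19 and 40 in Lipo and 446 and 544 in OE. As CPM this was 1.31 ± 0.730 in Lipo and 23.5 ± 2.14 in OE (SD, n = 2 each), an 18.1-fold rise (log2 4.17, SE 0.36, adjusted p = 1.61e-06) with no overlap with any other group. Its KO value was -0.90 on the log2 scale (adjusted p = 0.0617), and it passed as lower with DESeq2 (0.0337), without a filter (0.0205) and without KO 1, Lipo 2 or Lipo 3 (0.0476, 0.041 and 0.0415). Per kilobase, BCL2A1 thereby moved from below BCL2L2 in Lipo to above it in OE.

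BCL2, the founding pro-survival gene, was at the edge of detection in this line. It had 14, 15 and 10 reads in WT, 8 and 13 in Lipo, 3 and 11 in OE, and 51, 44 and 79 in KO. Each KO library lay above every other library, and KO was 4.52-fold above WT (log2 2.18, SE 0.48, adjusted p = 0.00752). The fitted log2 value had a 95% interval of 1.01 to 3.35. The ratio of the summed levels, 174 reads to 39, was 4.51 with a 95% counting interval of 3.17 to 6.56, which leaves out the spread between libraries. Even so, the level in KO was 2.46 ± 0.871 CPM (SD, n = 3), and per kilobase BCL2 stayed the lowest of the pro-survival genes. BCL2L2 was at 33.8 and 34.1 CPM in Lipo and 56.8 and 59.1 in OE (1.71-fold, log2 0.77, SE 0.14, adjusted p = 0.00255), and it shares 19.4% of its exon bases with the read-through gene BCL2L2-PABPN1. MCL1 and BCL2L1 passed in no comparison, and their OE values were -0.14 (95% interval -0.45 to 0.18) and 0.34 (-0.04 to 0.71) on the log2 scale. With WT as the control of OE, BCL2L1 was higher (log2 0.50, adjusted p = 0.0167).

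**Figure D3:**
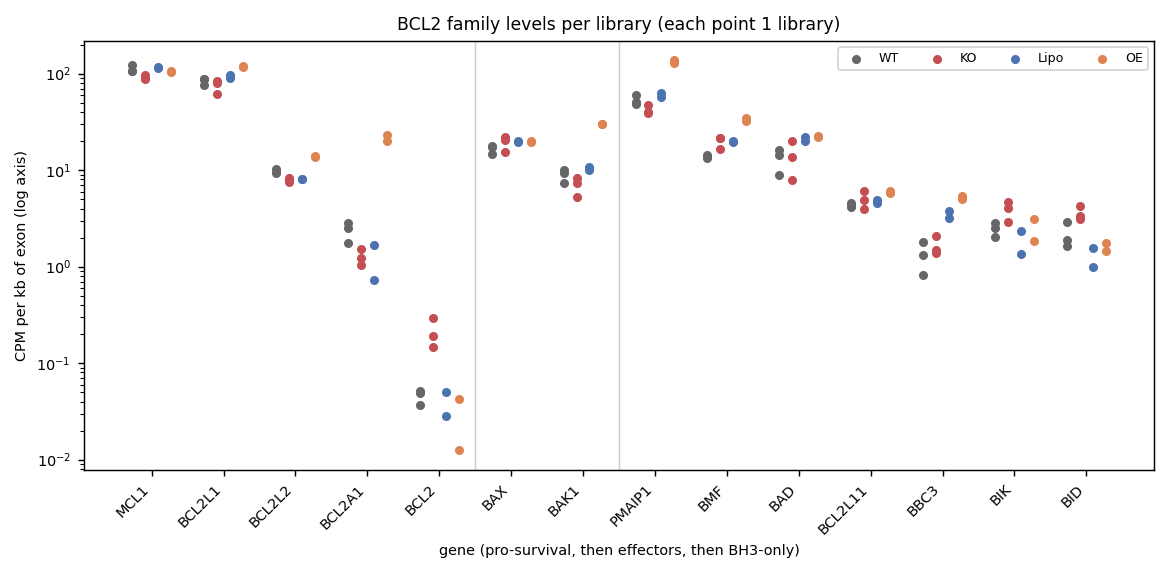
CPM per kb of exon (y axis, log scale) of 14 BCL2-family genes in each library (points, coloured by group), from pro-survival genes through effectors to BH3-only genes. MCL1 and BCL2L1 sit at the top in WT, KO and Lipo, PMAIP1 lies above them in OE, BCL2A1 and BAK1 are highest in OE, and BCL2 is the lowest in every library.

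The effector genes BAX and BAK1 differed in their response. BAK1 was at 16.4, 20.5 and 22.4 CPM in WT, 11.6, 16.1 and 18.4 in KO, 22.1 and 23.6 in Lipo and 66.1 and 67.1 in OE. It was 2.92-fold higher in OE than in Lipo (log2 1.54, SE 0.21, adjusted p = 0.000188). BAX was at 52.2 and 51.0 CPM in Lipo and 51.4 and 51.2 in OE, a log2 value of -0.01 with a 95% interval of -0.44 to 0.42, which lies wholly below the BAK1 interval of 1.03 to 2.06.

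PMAIP1 and BMF were the BH3-only genes that rose in OE, and 5 of the 7 that could be tested did not pass there. PMAIP1, which encodes NOXA, the partner that neutralises MCL1, was at 134, 107 and 114 CPM in WT, 105, 89.5 and 87.6 in KO, 128 and 140 in Lipo and 308 and 287 in OE. The rise over Lipo was 2.22-fold (log2 1.15, SE 0.15, adjusted p = 0.000127), and per kilobase PMAIP1 was the most abundant BH3-only gene in every group. Its KO value of -0.33 on the log2 scale did not pass in the main fit and passed as lower in 5 of 20 alternative runs. BMF, a BH3-only protein tied to the cytoskeleton, was higher in all 3 comparisons. It was at 78.1, 73.4 and 73.7 CPM in WT, 89.5, 118 and 118 in KO, 107 and 109 in Lipo and 176 and 187 in OE. WT was the lowest group without overlap. KO was 1.45-fold above WT (adjusted p = 0.0105), Lipo 1.44-fold above WT (0.0472) and OE 1.68-fold above Lipo (0.00487).

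Several BMF calls rested on single libraries. Its KO call was lost without WT 2 (adjusted p = 0.0541) and against all 5 wild-type-labelled libraries (log2 0.30, adjusted p = 0.237). Its OE call was lost without Lipo 2, Lipo 3 or OE 2 (adjusted p 0.0633 to 0.0668), and its Lipo call without any 1 of 8 libraries, KO 1 and KO 3 being the others (0.0554 to 0.358). BBC3, which encodes the p53 target PUMA, was at 2.60, 4.24 and 5.78 CPM in WT, 12.03 and 10.07 in Lipo and 17.3 and 16.1 in OE. The step from WT to Lipo passed (2.63-fold, log2 1.39, SE 0.28, adjusted p = 0.0131) and that from Lipo to OE did not (log2 0.60, adjusted p = 0.224). Without Lipo 2 or Lipo 3 the adjusted p of the first was 0.148 or 0.105.

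The remaining BH3-only genes passed in no comparison of the main fit. BID, which caspase-8 cleaves to link the receptor and mitochondrial routes, was at 12.8, 7.33 and 8.46 CPM in WT and 14.96, 13.75 and 18.88 in KO (log2 0.74, adjusted p = 0.0519), just outside the threshold. Without WT 1 its adjusted p was 0.0088. BAD, BIK and BCL2L11 (BIM) had OE values of 0.09, 0.42 and 0.34 on the log2 scale, with adjusted p-values of 0.899, 0.56 and 0.276. HRK had no reads in any library, which allows up to 0.115 to 0.148 CPM per library, counting error only.

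Most caspase genes did not pass in any comparison, and CASP6 moved in opposite directions in KO and OE. CASP6, an executioner caspase, was at 35.6, 32.1 and 28.1 CPM in WT, 45.8, 45.2 and 42.9 in KO, 37.4 and 32.4 in Lipo and 23.3 and 23.2 in OE. KO was 1.40-fold above WT (adjusted p = 0.0246) and OE 1.5-fold below Lipo (log2 -0.58, SE 0.16, adjusted p = 0.0286), with no overlap in either comparison. The KO call was lost without WT 2, WT 3, KO 2, OE 1 or OE 2 (adjusted p 0.0502 to 0.127), and the OE call without WT 2, Lipo 2, Lipo 3, OE 1 or OE 2 (0.0518 to 0.228). CASP4, the caspase that senses cytosolic lipopolysaccharide in pyroptosis, was at 135 and 148 CPM in Lipo and 194 and 199 in OE (1.39-fold, adjusted p = 0.0324). That call was lost without WT 2, WT 3 or any Lipo or OE library (adjusted p 0.0504 to 0.272). CASP1, the inflammasome caspase, lies 56.0 kb from CASP4 on chromosome 11. It had 7 and 21 reads in OE against 0 and 2 in Lipo, a ratio of levels of 15.3 with a 95% counting interval of 3.86 to 133, 0 to 2 reads in each WT and KO library, and no test.

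The initiator caspases CASP2, CASP8, CASP9 and CASP10 had OE values of -0.02, 0.43, 0.13 and 0.46 on the log2 scale, with adjusted p-values from 0.153 to 0.964. CASP10 was higher in OE than in WT (log2 0.83, adjusted p = 0.00432). Its KO value of 0.50 on the log2 scale did not pass in the main fit and passed as higher in 5 of 20 alternative runs.

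CFLAR, the caspase-8 regulator c-FLIP, differed between every pair of groups compared. It was at 248, 251 and 252 CPM in WT, 209, 199 and 178 in KO, 153 and 164 in Lipo and 294 and 309 in OE, so OE and WT lay above both KO and Lipo. OE was 1.91-fold above Lipo (log2 0.93, SE 0.13, adjusted p = 0.000244), Lipo fell below WT by 0.66 on the log2 scale (adjusted p = 0.00748) and KO by 0.36 (adjusted p = 0.0373). The reading depends on the control. Against WT the OE value was 0.27 (adjusted p = 0.109), and against all 5 wild-type-labelled libraries it was 0.50 for OE (adjusted p = 0.0835) and -0.13 for KO (adjusted p = 0.665). The KO call was also lost without any 1 library but WT 1 and KO 1 (adjusted p 0.0619 to 0.128), and the Lipo call without Lipo 2 or Lipo 3 (0.148 and 0.127).

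CFLAR, CASP10 and CASP8 lie side by side on chromosome 2 with gaps of 6.19 and 4.04 kb, and of these neighbours only CFLAR passed in OE with Lipo. With WT as the control of OE, only CASP10 of these neighbours passed (log2 0.83, adjusted p = 0.00432). RIPK1, the kinase that directs receptor signals to NF-kB or death, was at 63.0 and 68.3 CPM in Lipo and 101 and 96.7 in OE (1.51-fold, adjusted p = 0.0222), and at 90.0, 73.1 and 74.7 in WT. Its call was lost with WT as control (log2 0.32, adjusted p = 0.11) and without any 1 of the Lipo and OE libraries (0.114 to 0.194). The adaptor FADD had a log2 value of 0.35 in OE with Lipo (adjusted p = 0.142) and of 0.52 in OE with WT (adjusted p = 0.0109). An antisense gene overlaps 54.9% of its exon bases.

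No apoptosome or mitochondrial factor passed. APAF1, the scaffold of the apoptosome, was at 33.6 and 32.2 CPM in Lipo and 29.1 and 28.7 in OE (log2 -0.19, adjusted p = 0.588). CYCS, cytochrome c, was at 46.6 and 55.0 and at 69.8 and 63.2 (log2 0.39, adjusted p = 0.275). DIABLO, the mitochondrial antagonist of the inhibitors of apoptosis, had 28 to 55 reads per library, and a second entry of the same name shares 29.6% of its exon bases, so its level is uncertain. Of these 3 genes 0 passed with edgeR or DESeq2 in KO, OE or Lipo, and none had an unadjusted p under 0.05.

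The largest rise of all 47 genes was that of XAF1, the XIAP-associated factor and an interferon-inducible antagonist of the inhibitors of apoptosis. It had 2, 0 and 3 reads in WT, 7, 8 and 15 in KO, 0 and 0 in Lipo and 2174 and 2594 in OE. Against a floor of 3 reads over the Lipo group it was at least 1739-fold higher in OE (adjusted p = 9.6e-10). The OE level was 113 ± 8.56 CPM (SD, n = 2). KO was also above WT, at 30 reads to 5 in all, a ratio of 6.06 with a 95% counting interval of 2.33 to 20. That interval leaves out the spread between libraries. The KO call (adjusted p = 0.0153) was lost without WT 2 or KO 3 (0.0613 and 0.0684). XAF1 passed the filter on low counts through the OE libraries, and fits with only WT and KO did not retain it for testing.

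BIRC3, which encodes the ubiquitin ligase cIAP2 and is a classic NF-kB target, was at 33.98, 21.5 and 16.96 CPM in WT, 26.03, 26.37 and 14.42 in KO, 20.02 and 16.14 in Lipo and 164 and 181 in OE. It rose 9.54-fold over Lipo (log2 3.25, SE 0.32, adjusted p = 6.39e-06). Its neighbour BIRC2 (cIAP1), 7.81 kb away on chromosome 11, was at 44.3 and 40.8 CPM in Lipo and 59.5 and 63.4 in OE (1.44-fold, adjusted p = 0.0296). The BIRC2 call was lost without WT 2 or any Lipo or OE library (0.0526 to 0.254). XIAP, the direct caspase inhibitor, was lower in KO, at 60.5, 63.8 and 44.2 CPM against 75.9, 78.7 and 81.0 in WT (log2 -0.48, SE 0.14, adjusted p = 0.0355). In OE it was at 51.4 and 61.0 CPM against 77.8 and 78.2 in Lipo (log2 -0.47, adjusted p = 0.089), and against WT that value was -0.48 (adjusted p = 0.0379). The KO call for XIAP was lost without WT 2, WT 3, KO 3 or any Lipo or OE library (0.0581 to 0.114).

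MLKL, the membrane-permeabilising executor of necroptosis, was at 34.6, 30.3 and 26.7 CPM in WT, 34.1, 32.1 and 31.4 in KO, 25.98 and 22.24 in Lipo and 53 and 52.33 in OE. It rose 2.18-fold over Lipo (log2 1.13, SE 0.17, adjusted p = 0.000382). RIPK3, the kinase that activates MLKL, had no reads in any of the 10 libraries, under the same limit as HRK, and 11.0% of its exon bases are shared with another entry.

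The genes around this machinery were read from lists of related genes. Of all genes tested, 6.79% were higher and 5.53% lower in OE, 5.13% and 7.45% in KO, and 1.32% and 2.38% in Lipo. These are the shares to set beside each list below. Of 16 tested death receptors, ligands and receptor-complex regulators, 11 were higher and 1 lower in OE than in Lipo, with a median log2 of 0.74. TNFSF10, the death ligand TRAIL, was at 6.66 and 9.07 CPM in Lipo and 83.2 and 78.1 in OE (log2 3.36, adjusted p = 8.69e-08). The NF-kB feedback gene TNFAIP3 (A20) was at 36.3 and 34.1 CPM in Lipo and 647 and 655 in OE (log2 4.21, adjusted p = 9.07e-07), TRAF1 at 4.04 and 4.51 and at 60.1 and 71.6 (log2 3.95, adjusted p = 1.98e-07), and the deubiquitinase CYLD rose by 1.23 (adjusted p = 0.000672). In KO, 3 genes of that list were higher and 2 lower, TNFAIP3 being lower there (log2 -1.48, adjusted p = 0.00175) and TNFSF10 higher (0.78, adjusted p = 0.00793).

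Of 16 p53 regulators, 1 was higher and 2 lower in OE, where ATM, the DNA-damage kinase that activates p53, fell by 1.05 on the log2 scale (adjusted p = 0.000679) and PRKDC by 0.75 (adjusted p = 0.0023). In KO, 3 were higher and 3 lower (18.8% each, against 5.13% and 7.45% of all genes). They included PRKDC (log2 -0.75, adjusted p = 0.000427), HIPK2 (-0.82, 0.0064), CDKN2A (0.64, 0.00854), KAT5 (0.45, 0.0224) and MDM4 (0.64, 0.0391). Of 27 further p53 targets tested, 6 were higher and 4 lower in OE (median log2 -0.02), led by TRIM22, an interferon-inducible gene (log2 6.53, adjusted p = 2.59e-07), the death receptor FAS (1.03, 0.00219) and SFN (0.78, 0.00357). Of those 27, 1 was higher and 4 lower in KO (3.7% and 14.8%, against 5.13% and 7.45% of all genes). In Lipo with WT, 1 was higher: GDF15, a stress cytokine, at 86.0 and 80.5 CPM against 6.36 to 14.4 in WT (log2 2.86, adjusted p = 0.000631).

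Of 11 further caspase and pyroptosis genes tested, 2 rose in OE, led by AIM2, a sensor of cytosolic DNA (log2 1.95, adjusted p = 9.92e-06), and none fell with edgeR, where DESeq2 called 1 lower. In KO the cytokine IL18 was higher (1.42, adjusted p = 0.00251), and the inflammasome adaptor PYCARD had no reads in KO and 0.216 to 0.42 CPM in WT (adjusted p = 0.00803). A single read was 0.0382 to 0.0438 CPM in WT. PYCARD was thus near the floor there and passed the filter on low counts through Lipo or OE libraries. Of 16 further BCL2-family and mitochondrial genes, BCL2L13 (0.85, adjusted p = 0.000597) rose in OE and VDAC3 (0.51, adjusted p = 0.0064) in KO, and BNIP3 was lower in Lipo than in WT (-0.61, adjusted p = 0.0212). Of 6 further inhibitors and necroptosis genes, ZBP1, a nucleic acid sensor that can engage RIPK3, had 10.9 and 10.7 CPM in OE and at most 0.0833 in any other library, and SPATA2 rose by 0.71 (adjusted p = 0.016). BIRC5 (survivin) passed in no comparison. Beside these changes, all 21 tested interferon-stimulated genes rose in OE (median log2 5.11), and their list summed to 15200 and 15300 CPM there against 815 and 852 in Lipo and 645 to 713 in WT and KO. Mitochondrially encoded genes took 4.74% to 4.89% of reads in OE, 8.04% to 8.72% in Lipo, 5.47% to 6.15% in WT and 5.44% to 7.25% in KO. The part of either in the results above was not tested.

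The choice of control for OE was checked by setting WT in place of Lipo. Of the 17 genes higher with Lipo as control, 15 were also higher with WT, and CFLAR and RIPK1 were not. BCL2L1, BBC3, CASP10 and FADD were called higher only with WT, and XIAP was called lower only with WT. Both genes lower with Lipo as control, ZMAT3 and CASP6, were also lower with WT. The share of all genes called with WT as control was not taken. These counts therefore compare the controls and do not set these genes apart from others.

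The effects of overexpression and knockout were then compared gene by gene, as the OE-minus-Lipo change less the KO-minus-WT change, which share no library. Of 44 genes, 15 had a higher effect in OE than in KO and 2 a lower one, against 9.47% and 7.16% of all genes tested. The largest difference other than that of XAF1 was for BCL2A1, whose KO value was -0.90 (adjusted p = 0.0617) and whose effects differed by 5.08 on the log2 scale (SE 0.46, adjusted p = 2.80e-06). For BIRC3 the difference was 3.37 (SE 0.39, adjusted p = 3.38e-05) and for BAK1 1.90 (SE 0.27, adjusted p = 0.000217). BCL2 and CASP6 had the lower effect in OE, by -2.65 (SE 0.83, adjusted p = 0.0417) and -1.07 (SE 0.21, adjusted p = 0.00261). The BCL2 difference was lost without WT 2, WT 3, KO 1, KO 3, Lipo 2, Lipo 3 or OE 1 (adjusted p 0.055 to 0.198). BMF, which was higher in both, had effects that differed by 0.21 with a 95% interval of -0.27 to 0.69, and those of XIAP differed by 0.01 (-0.53 to 0.55).

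**Figure D4:**
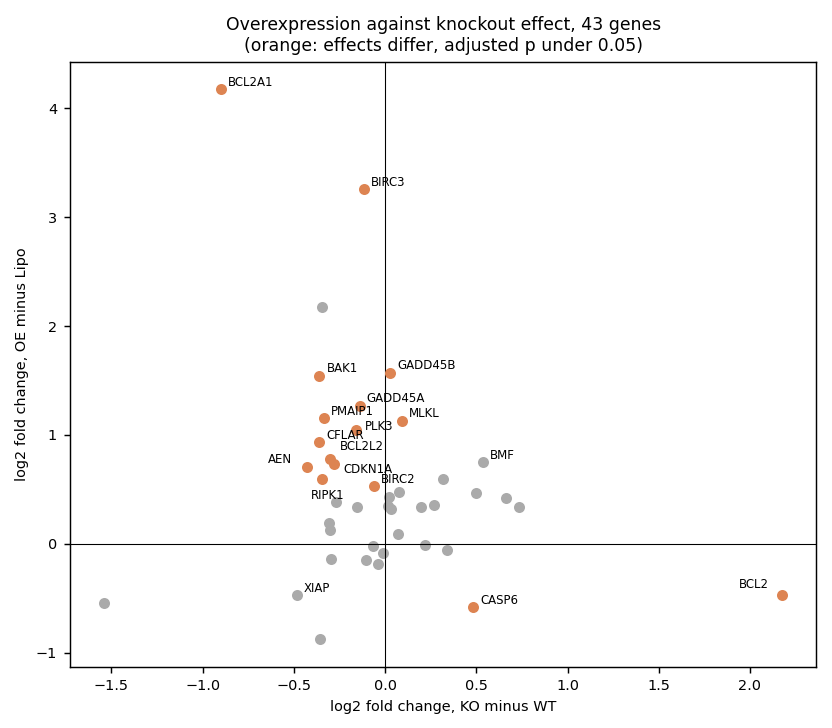
Log2 fold change in OE minus Lipo (y axis) against that in KO minus WT (x axis) for each tested gene except XAF1; orange points are genes whose effects differed at an adjusted p under 0.05, and genes called in KO or in that difference are named. BCL2A1 and BIRC3 stand at the top, and BCL2 stands alone at the right with a KO value of 2.18.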

How the data were processed

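Total RNA from 10 libraries of H441 cells was sequenced with a stranded low-input kit, per the labels. The authors deposited unnormalized counts of reads for each gene. Tools listed in the submitters' processing notes are featureCounts, HISAT2 2.1.0, edgeR and FastQC, with build GRCh38. The strand setting of counting is not given in the sources used here, so reads of overlapping and antisense genes cannot be told apart. Beside the overlaps given above, an entry on the opposite strand shares 43% of the exon bases of BCL2L1, 38.3% of XAF1 and 23.7% of BAD. CASP6 shares 5.4% with MCUB, which was at 16.5 CPM in WT, 23.2 in KO, 15.1 in Lipo and 13.0 in OE. The part of these entries in the results was not tested. Of the deposited columns, 2 matched no sample and were not used here.

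Counts were fitted with edgeR 4.0.16 in R 4.3.3 (filterByExpr, TMM scaling, robust quasi-likelihood, 1 coefficient per group over all 10 libraries, 6 residual degrees of freedom). Tests were two-sided, with Benjamini-Hochberg adjustment over 15832 genes and a threshold of 0.05. The 95% intervals of log2 values use those 6 degrees of freedom, whereas the tests also draw on the spread of other genes. An interval can therefore include 0 where the test gave an unadjusted p under 0.05, as for BCL2L1 in OE with Lipo (0.0436). CPM use TMM-adjusted library sizes, and lengths come from GENCODE exons, since the authors' annotation release is not given in the sources used here. Folds are those fitted by the model with a prior count of 0.125; ratios of reads carry exact 95% intervals, and 3 reads are the floor for a count of 0, covering counting error only. Depth was 20994462 to 25981097 reads.

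The genes and lists were chosen with earlier results of these data known. Every gene past the threshold is named with values; from other lists up to 4 genes per comparison with the smallest p are named, with BIRC5 and MDM4; some items are not reported here. Promoters are shown for the 4 genes with the largest fitted OE change that had a window, called or not, and for GADD45B, added after its values were seen. The NF-kB consensus was added after the data were seen. Alternatives were DESeq2 1.42.0, scaling by RLE or by library size alone, no filter or a stricter one, fits to the compared groups only, a replicate block, other controls and each library left out; leaving out WT 1 and KO 1 together was added after seeing the data.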

Additional observations from a re-analysis of the deposited data

Results flagged for a closer look

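The OE and KO effects differed by the test of the difference itself (edgeR quasi-likelihood test, adjusted over 15832 genes) for 17 genes, which is what brought them here. Among the p53 targets the OE effect exceeded the KO effect on the log2 scale by 1.01 for CDKN1A, 1.41 for GADD45A, 1.54 for GADD45B, 1.21 for PLK3 and 1.14 for AEN. In the BCL2 family it exceeded it by 1.07 for BCL2L2, 5.08 for BCL2A1, 1.90 for BAK1 and 1.49 for PMAIP1, and for BCL2 the value was -2.65. Among caspases and the receptor complex the values were -1.07 for CASP6, 1.29 for CFLAR and 0.94 for RIPK1. Among the inhibitors and necroptosis genes they were 0.59 for BIRC2, 3.37 for BIRC3, 11.85 for XAF1 and 1.04 for MLKL. The BIRC2 difference was lost in 10 of 16 alternative runs, that of BCL2 in 8, and those of CDKN1A and PLK3 in 2 each. The XAF1 value depends on the prior count, since Lipo had no reads of the gene. No group had 4 or more libraries, so single libraries were not tested for standing apart.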

How the results depend on the processing

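No gene called in a comparison changed direction under any alternative run. Under every alternative that tested them, the OE calls of GADD45A, GADD45B, BCL2L2, BCL2A1, BAK1, PMAIP1, BIRC3, XAF1 and MLKL stayed past the threshold, 9 of 19, as did 1 of 6 KO calls (BCL2), 0 of 4 Lipo calls and 13 of 17 calls of the difference between OE and KO. XAF1 was untested under the stricter filter and, for KO, in fits with only WT and KO.

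Of the genes in KO, 0 were lower with library size alone, 4 against all 5 wild-type-labelled libraries and 5 without WT 1 and KO 1, in place of 2. With only the groups compared, 2 were higher and 0 lower in KO, and 4 were lower in OE, where 25 were higher; those pairs share no spread with the other libraries. Without a filter, 2 were lower in Lipo. The cause of these differences was not tested. Shares over all genes were not taken for the alternative runs, those with a library left out included. Their counts are therefore not set against a background.

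The replicate number as a block gave 6 higher and 7 lower genes in KO in the fit of all 10 libraries, in place of 4 and 2. Genes added as lower included BCL2A1 (adjusted p = 0.0343), TP53INP1 (0.046), AEN (0.0428) and PMAIP1 (0.0343). BID (0.00796) and CASP10 (0.0364) were added as higher. With only WT and KO the block gave 5 higher and 6 lower. In the fit of 10 libraries it gave 1 lower in the difference between OE and KO. Deviations of same-numbered WT and KO libraries correlated at 0.328, 0.0577 and 0.185, and those of differently numbered ones at -0.238 to 0.092. WT 1 and WT 3 correlated best with the KO library of the same number, and WT 2 with KO 3 (0.092). The main fit took no pairing, and whether same-numbered libraries belong together was not tested.

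With each library left out in turn, 1 to 5 genes were higher and 0 to 4 lower in KO, 10 to 17 higher and 0 to 3 lower in OE, and 0 to 3 higher and 0 to 1 lower in Lipo. For the difference, 13 to 17 were higher and 1 to 2 lower. Where that leaves 1 library in a group, it is assumed to vary like the others. Groups of 2 and 3 and low counts limit what could be called for BCL2, BTG2, TP53INP1 and CASP1.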

Other observations

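Proliferation genes were described beside the growth-arrest genes of the p53 list. Of 17 tested, 4 were lower (23.5%) and 0 higher in OE than in Lipo with edgeR, against 5.53% and 6.79% of all genes. DESeq2 called 6 lower. All 17 had a log2 value below 0, with a median of -0.30, where 8023 of 15832 genes tested were below 0. Their summed level was 2580 and 2560 CPM in OE against 3420 and 3410 in Lipo. TOP2A, the DNA topoisomerase of dividing cells, fell by 0.82 (adjusted p = 0.00206), BUB1, a spindle checkpoint kinase, by 0.86 (adjusted p = 0.00403), CCNB2 by 0.67 (adjusted p = 0.00477) and CDK1 by 0.57 (adjusted p = 0.0223). In KO, 1 of the 17 was higher, CCNB1 (log2 0.47, adjusted p = 0.0122), and none was lower.

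Some entries are listed at 0 in all 10 libraries, among them RIPK3, HRK, TNF and IRF9. IRF9 is an interferon-stimulated gene, and all 21 tested interferon-stimulated genes rose in OE. How an entry came to be at 0 was not tested.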
